A study of Mus with 2 samples.

Results

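Platelet-marker cells were the sorted hematopoietic stem cells (HSCs) that held at least 1 RNA molecule of at least 4 of 7 platelet genes, namely Pf4, Itga2b, Gp1bb, Treml1, F2r, Gp5 and Sdpr. They numbered 177 of the 681 stem cells and of the 981 barcodes called as cells. In the Id2+/+ library 55 of 263 stem cells were members, and in the Id2-deleted library 122 of 418 were. RNA molecules were counted by their unique molecular identifiers (UMIs) on the 10x Genomics Chromium platform, with 1 library per genotype, so that cells were not replicates and no difference between the genotypes could be tested. Every 95% interval given here covers counting error only.

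The study asked what the loss of Id2, an inhibitor of basic helix-loop-helix transcription factors, does to HSCs, and it named a platelet-biased class among them by Pf4, Vwf and Cdk1. Each library came from 1000 cells sorted as LSK FLT3- CD150+ CD48- from the pooled tibia and fibula marrow of 5 mice aged 8 to 12 weeks. The Id2+/+ mice carried Mx1-Cre, as did the mice whose floxed Id2 was deleted, and both genotypes received poly(I:C), the agent that switches on this interferon-driven recombinase, with cells taken 2 weeks later. Mx1-Cre is not limited to blood cells, and poly(I:C) itself activates stem cells, which both groups share. Id2 had 3 UMIs in 3 of the 55 Id2+/+ members and 0 in the 122 Id2-deleted members, a count that allows a share of up to 2.46%. Among the other stem cells an Id2 UMI was found in 17 of 208 cells with intact Id2 and in 0 of 296 without it, the latter allowing up to 1.01%. Each limit stands for 3 cells of the total and bounds the cells with a UMI, not the cells that express the gene. Among called cells left out for their neutrophil genes, Id2 had 29 UMIs in 15 of 27 Id2+/+ cells and 0 in 38 Id2-deleted cells. The last exon of Id2 lies outside the floxed segment, so these 3′ counts alone do not check the deletion.

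Megakaryocytes are the large marrow cells that shed platelets, and they carry on their surface the receptors for collagen, thrombin, von Willebrand factor and fibrinogen that platelets use at a wound. A fraction of mouse HSCs is known to transcribe megakaryocyte genes such as Vwf and Pf4 and to give rise mainly to platelets after transplantation, and such cells are known to be more frequent in old animals and to respond to inflammation. The rule takes 7 genes as markers of that program. Pf4 encodes the chemokine platelet factor 4 of the alpha granules. Itga2b encodes CD41, the alpha chain of the fibrinogen receptor. Gp1bb and Gp5 encode subunits of the receptor for von Willebrand factor, F2r encodes the thrombin receptor PAR1, Treml1 encodes a granule membrane receptor, and Sdpr (Cavin2) encodes a coat protein of caveolae.

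The libraries held 8612217 and 17140713 UMIs, Id2+/+ first as in all paired values that follow, and a barcode needed 4394 and 6178 UMIs to be called a cell. Members were the deeper cells. Their median UMI number was 10969 and 13904, against 6643.5 and 8685.5 in the other stem cells, and their median number of detected genes was 3424 and 3726, against 2535.5 and 2959.5. Mitochondrial genes held a median of 2.18% and 1.95% of a member's UMIs. Above the 95th percentile of UMIs of all stem cells lay 10 and 18 members. Doublets were not called, and their part in the deepest members was not tested. The libraries shared 1 called barcode and no member barcode.

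Because a gene is seen more readily in a deeper cell, the share of members moved with depth. As deposited it was 20.9% (exact 95% interval 16.2 to 26.3) in the Id2+/+ library and 29.2% (24.9 to 33.8) in the Id2-deleted library. When both libraries were held to the higher limit of 6178 UMIs, the shares were 29.2% (52 of 178) and 29.2% (122 of 418). When each cell was thinned to 4394 UMIs, 23 Id2+/+ cells (8.75%, 5.62 to 12.8) and 53 Id2-deleted cells (12.7%, 9.64 to 16.3) still had 4 markers. Over 20 such draws the counts ran from 22 to 34 and from 52 to 66, and only 7 and 9 cells passed in every draw. Thinned to 6178 UMIs, with shallower cells left out, the shares were 19.7% and 19.9%. The libraries thus had like shares at 6178 UMIs, by limit or by thinning, and overlapping intervals at 4394.

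**Figure D1:**
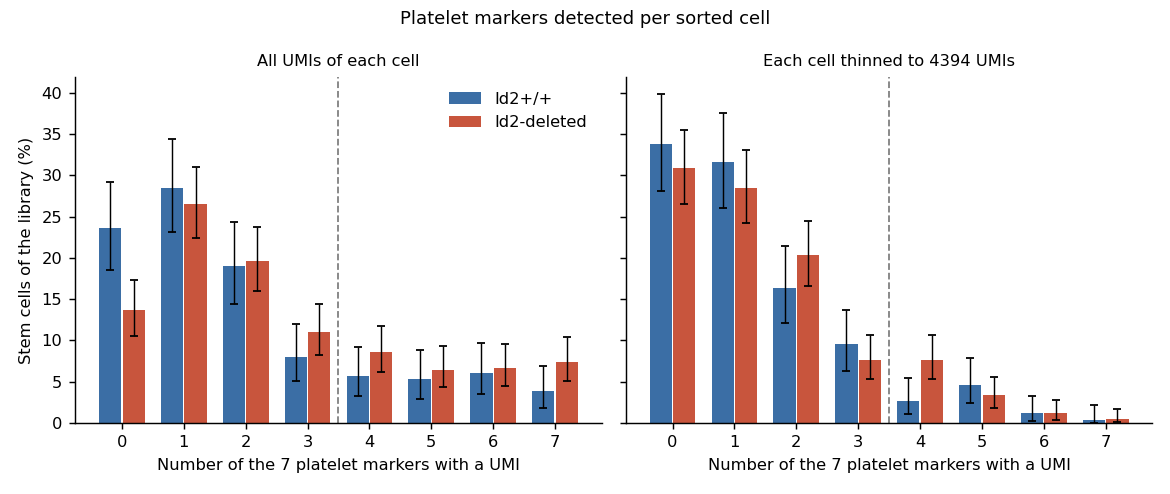
Percent of each library's stem cells (y axis) by how many of the 7 markers had a UMI (x axis), with all UMIs on the left and each cell thinned to 4394 UMIs on the right; bars are percentages with exact 95% intervals and the dashed line is the limit. No gap separates the cells at the limit, with 21 and 15 cells on its sides in Id2+/+ and 46 and 36 in Id2-deleted before thinning.

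The limit cut a continuous range. Just outside it lay 21 and 46 cells with 3 markers, and just inside it 15 and 36 cells with 4. The summed level of the 7 markers was 530 and 432 CPM (UMIs of the genes scaled to a common total of UMIs) with 3 markers and 1118 and 761 CPM with 4. At the far end, 10 and 31 cells had all 7 markers, at 10642 and 9872 CPM, and their median depth was 17480.5 and 22448 UMIs. These values chose the cells and are given as a description.

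Pf4 made up 75.2% and 78.6% of all UMIs of the 7 markers in members. It stood at 3207 and 3843 CPM in members and at 78.0 and 111 CPM in the other stem cells. Its distribution was steep. The 10 cells highest in Pf4 held 79.1% of its member UMIs in Id2+/+ and 48.5% in Id2-deleted, 1 cell alone held 336 UMIs (16.0%) and 592 UMIs (7.98%), and the median member had 572 and 567 CPM. In 4 and 10 members Pf4 had no UMI. Summed over the 7 markers, 19 and 40 members lay under 1000 CPM and 5 and 17 over 10000 CPM.

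The other markers were flatter. Itga2b was at 309 and 326 CPM against 40.6 and 45.9 in the other stem cells, and it was missing from 3 and 6 members. Sdpr was at 183 and 213 CPM against 18.1 and 16.1. F2r was at 208 and 123 CPM against 44.9 and 36.8. Treml1 was the sparsest, absent from 22 and 65 members. To take each marker out of its own choice, its level was also read in cells with at least 4 of the other 6 markers. The ratio to the remaining stem cells was then 34.9 and 34.4 for Pf4, 12.8 and 19.1 for Gp1bb, 9.35 and 10.8 for Treml1, 8.33 and 7.74 for Sdpr, 5.99 and 5.59 for Itga2b, 4.88 and 4.42 for Gp5 and 3.23 and 2.55 for F2r. All 7 thus stayed higher where they had not chosen the cells, and detection of each still moved with the cells' depth.

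On mm10 the markers lie on 6 chromosomes, with Pf4 (ENSMUSG00000029373) at chromosome 5, 90772435 to 90773383, Itga2b (ENSMUSG00000034664) at chromosome 11, 102453297 to 102469883, and Treml1 (ENSMUSG00000023993) at chromosome 17, 48359916 to 48367176. F2r (ENSMUSG00000048376) lies at chromosome 13, 95601780 to 95618466, Gp5 (ENSMUSG00000047953) at chromosome 16, 30307685 to 30310781, and Sdpr (ENSMUSG00000045954) at chromosome 1, 51289126 to 51302960. Gp1bb (ENSMUSG00000050761), at chromosome 16, 18620319 to 18622403, overlaps Septin5 in the RefSeq annotation, and Sdpr overlaps the gene model 9330175M20Rik, so reads of these pairs may not be separable.

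Members were compared with the other stem cells of the same library by summed counts over every gene with at least 50 UMIs, and a gene was called at a fold of 2. In Id2+/+ 5722 genes were compared, of which 97 (1.7%) were higher in members and 264 (4.61%) lower. In Id2-deleted 7649 genes were compared, of which 180 (2.35%) were higher and 434 (5.67%) lower. The median log2 ratio over all genes was 0.011 and −0.017. Among the 5698 genes compared in both libraries, 46 were higher in both, which is 47.9% of the 96 higher in Id2+/+ and 48.9% of the 94 higher in Id2-deleted. Lower in both were 138 genes, or 54.1% of 255 and 52.1% of 265. Since the members were chosen on genes of these same cells and are deeper, these are descriptions of what the rule gathered. Ratios are therefore also given against a deep comparator, the 34 and 71 other stem cells with at least the members' 25th percentile of UMIs (9138.5 and 10697.5), whose median depth was 10623 and 12814 UMIs. These deep cells differed in content too. Their erythroid genes summed to 8520 and 4019 CPM, against 3201 and 2955 CPM in the shallower other stem cells and 3200 and 2612 CPM in members. How far depth and content each enter the ratios to this comparator was not tested.

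The label check split. Some platelet and megakaryocyte genes that the rule did not use were higher in members in both libraries, and some of the genes that mark HSCs were lower. Of 69 megakaryocyte genes outside the rule, 44 and 52 passed the minimum of 50 UMIs, 13 and 18 were higher by a fold of 2, beside 1.7% and 2.35% of all genes, and 1 and 2 were lower. Of those, Serpine2, Plek, Vwf and Tbxa2r in Id2+/+ and Serpine2, Clu, Timp3, F2rl2, P2ry1 and Mylk in Id2-deleted passed that minimum only through the members' higher level. Of 23 stem cell genes, 17 passed in each library, of which 0 and 1 were higher and 10 and 9 lower, beside 4.61% and 5.67% of all genes. Among the lower ones named below, Procr, Mecom and Ly6a in Id2+/+ and Procr in Id2-deleted passed only through the other stem cells' higher level. Against the deep comparator the median of the stem cell genes was −0.066 and −0.27 on the log2 scale, whereas after thinning it was −2.02 and −1.11, and the medians of the receptor and transcription factor lists changed sign in some settings. For all medians and gene counts after thinning, the members were chosen again from the thinned cells, 23 and 53 of them. Shares of members with a UMI of a gene after thinning keep the original members. Since the stem cell genes went against the name in part, the cells are called here by their markers.

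**Figure D2:**
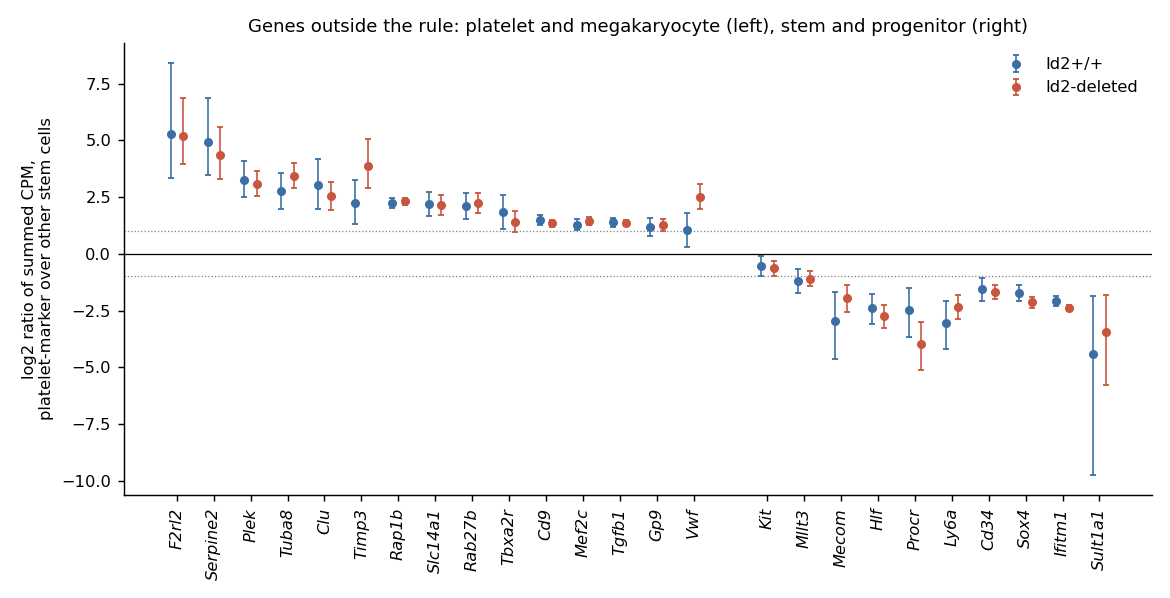
Log2 ratio of summed CPM in members over other stem cells (y axis) for single genes outside the rule (x axis) in each library, with 95% intervals for counting error and dotted lines at a fold of 2. Serpine2 (ratio 30.6 and 20.3), Plek (9.66 and 8.37) and Rap1b (4.70 and 4.98) lie above the upper line, and Hlf (0.19 and 0.148) lies below the lower one.

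Genes for platelet granules and secreted proteins had a median log2 ratio of 1.23 and 2.49. Serpine2, Plek and Vwf in Id2+/+ and Serpine2, Clu and Timp3 in Id2-deleted reached the minimum of 50 UMIs only through the members, where they were high. With a minimum of 1 UMI the medians were 1.07 and 1.45, and after thinning they were 0.87 and 0.82. As a mean over cells, which adds 0.5 of a count at the depth of the mean cell, they were 0.39 and 0.37. That addition came to 42.0 and 31.6 CPM in members and to 64.9 and 51.8 CPM in the shallower other stem cells, which lowers the ratio of genes near or under those levels. With 0.5 of a count over the whole group added instead, an alternative chosen after seeing the data, the medians were 1.16 and 2.16. Of 14 genes, 6 and 9 were compared, 4 and 6 were called higher and none lower. The called genes were Serpine2, Plek, Tgfb1 and Vwf in both libraries, with Clu and Timp3 in Id2-deleted. Serpine2, which encodes the thrombin inhibitor protease nexin 1, was at 76.4 and 57.0 CPM in members and at 2.50 and 2.80 in the other stem cells, a ratio of 30.6 (11.2 to 117) and 20.3 (9.97 to 48.3). On the log2 scale this was 4.78 and 4.27, which became 0.50 and 0.33 as a mean over cells and 4.10 and 3.58 with the smaller addition. It had a UMI in 13 and 29 members and 0 UMIs in the 34 deep cells of Id2+/+. Plek, encoding pleckstrin, the main substrate of protein kinase C in platelets, was at 108 and 103 CPM against 11.2 and 12.3. It was present in 24 and 67 members, and against the deep comparator its ratio was 7.61 and 7.53. As a mean over cells its log2 ratio was 0.88 and 0.90, and 3.15 and 2.87 with the smaller addition.

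Clu, for the secreted chaperone clusterin, was at 50.4 and 58.5 CPM against 6.24 and 10.2, and Timp3, for an inhibitor of metalloproteinases, at 44.3 and 46.6 CPM against 9.36 and 3.15. Neither reached 50 UMIs in Id2+/+, where they were not counted. Tgfb1, whose product is stored in alpha granules, was abundant in both kinds of cell and higher in members, at 603 and 641 CPM against 231 and 251. Srgn, for the granule proteoglycan serglycin, was nearly level, with ratios of 1.27 and 1.01. Ppbp, for the precursor of a platelet chemokine, was at 1.53 and 16.6 CPM against 3.12 and 5.603, with 1 UMI in Id2+/+ members and 32 UMIs in 16 Id2-deleted members, and Sparc had no UMI in members.

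Vwf, which the study names beside Pf4, was less clear than Pf4. It was at 45.8 and 69.4 CPM in members and 21.8 and 12.3 CPM in the other stem cells. The ratio was 2.10 (1.24 to 3.52) in Id2+/+ and 5.66 (3.88 to 8.47) in Id2-deleted, and 2.81 and 7.93 against the deep comparator. As a mean over cells rather than a sum over UMIs, the Id2+/+ log2 ratio was −0.025, and with the smaller addition 0.91. A UMI of Vwf was found in 15 of 55 and 58 of 122 members. After thinning to 4394 UMIs the shares were 16.4% and 17.2% of members, 8.65% and 3.72% of the other stem cells, and 2 of 27 and 0 of 38 cells above the neutrophil limit, cells that should lack the gene. Cells with UMIs of Pf4, Vwf and Cdk1 together numbered 11 of 55 and 43 of 122 members and 4 of 208 and 8 of 296 other stem cells. After thinning they numbered 2 and 7 among members and 2 and 2 among the others.

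Among the surface receptors outside the rule, 3 of 10 and 5 of 13 compared genes were called higher, 0 and 1 (Fcer1g) lower, and the median log2 ratio was 0.35 and 0.53. The tetraspanin Cd9 was the most abundant, at 525 and 532 CPM in members against 186 and 210, and it was detected in 55 of 55 and 117 of 122 members. Gp9, which completes the von Willebrand factor receptor with the products of Gp1bb and Gp5, was at 148 and 170 CPM against 65.5 and 70.7. Tbxa2r, the thromboxane receptor, was at 59.6 and 60.1 CPM against 16.8 and 22.4. These 3 receptors were higher in members of both libraries, by ratios between 2.26 and 3.54.

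F2rl2, the PAR3 gene that neighbours F2r on chromosome 13, was at 48.9 and 64.2 CPM against 1.25 and 1.75 CPM in the other stem cells, where it rested on 2 and 5 UMIs. It passed the minimum of 50 UMIs in Id2-deleted alone, its ratios were 39.2 (9.99 to 337) and 36.7 (15.3 to 115), and it overlaps Iqgap2, whose reads may be mixed with its own. Itgb3, the partner chain of Itga2b, was at 26.0 and 15.02 CPM against 1.87 and 2.45, under 50 UMIs in each library. Fcer1g, for a signalling chain, was at 51.9 and 32.6 CPM against 66.1 and 77.0. Gp6, the collagen receptor of mature platelets, had no UMI in any stem cell. The direction of the receptor median was not stable, since it was −0.21 and −0.15 as a mean over cells, 0.27 and 0.44 with the smaller addition, and −0.013 in Id2-deleted after thinning.

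Of the cytoskeletal and signalling genes, 3 of 13 and 4 of 15 compared genes were called higher and none lower, with a median log2 ratio of 0.64 and 0.37. Rap1b, the small GTPase that switches on the fibrinogen receptor, was at 874 and 880 CPM in members against 186 and 177. It was detected in 54 of 55 and 118 of 122 members, and no member held more than 6.12% of its UMIs. The ratio was 4.70 (4.08 to 5.42) and 4.98 (4.504 to 5.51), and 4.99 and 5.23 against the deep comparator. After thinning, 81.8% and 86.9% of members and 52.4% and 53.4% of the other stem cells held a Rap1b UMI.

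Slc14a1, a urea transporter gene, was at 131 and 95.8 CPM against 28.7 and 21.7, and Rab27b, for a GTPase of granule release, at 118 and 102 CPM against 27.5 and 21.7. Tuba8, an alpha tubulin gene that no list held, was at 84.0 and 120 CPM against 12.5 and 11.2 and was found in 30 and 72 members. Tubb1, the beta tubulin of proplatelets, and Myl9, the myosin light chain, had no UMI in members.

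Transcription factor genes of the lineage were uneven. All 15 were compared in each library, 3 were called higher and 1 lower in each, and the median log2 ratio was 0.34 and 0.27. Mef2c, a MADS box factor, was at 493 and 477 CPM in members against 202 and 175. Fli1, an ETS factor needed for megakaryocyte maturation, was at 232 and 172 CPM against 96.7 and 87.6, past a fold of 2 in Id2+/+ alone.

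Gata1, the master factor of erythroid cells and megakaryocytes, was at 90.1 and 93.2 CPM against 49.3 and 29.4, past a fold of 2 in Id2-deleted alone. Its ratio to the deep comparator was 0.76 (0.52 to 1.12) in Id2+/+ and 2.34 (1.66 to 3.37) in Id2-deleted, with an interval that included 1 in Id2+/+. Erg and Lyl1, which are known for stem cell maintenance, were at 41.2 and 42.0 CPM against 107 and 78.1, and at 185 and 127 CPM against 303 and 274. The Id2+/+ median turned to −0.10 as a mean over cells and −0.31 after thinning, and in Id2-deleted it was 0.0003 as a mean over cells. With the smaller addition these means over cells gave 0.18 and 0.31.

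**Figure D3:**
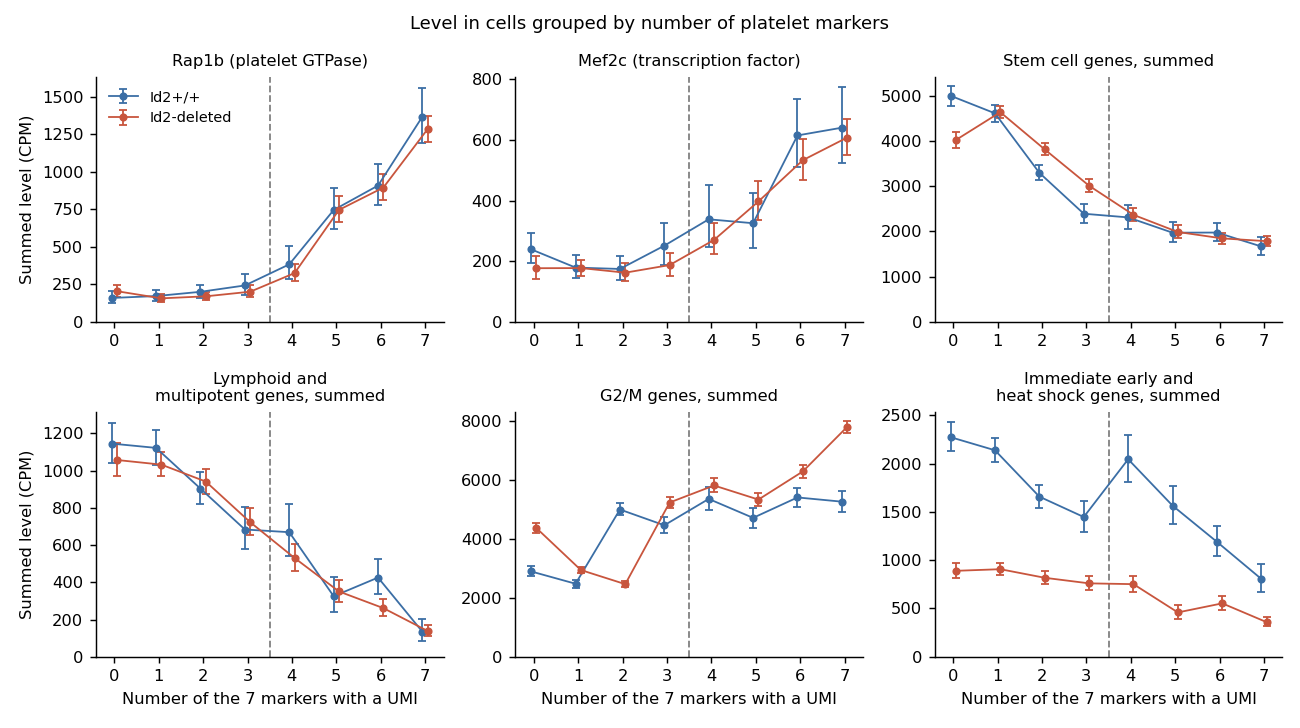
Summed level in CPM (y axis, own scale in each panel) by the number of the 7 markers with a UMI (x axis) in each library, for Rap1b, Mef2c and 4 gene groups, with 95% Poisson intervals and a dashed line at the limit. Rap1b climbs from 159 to 1367 CPM in Id2+/+ and from 203 to 1285 in Id2-deleted, whereas the stem cell group goes from 5000 to 1666 in Id2+/+ and from 4022 over 4637 at 1 marker to 1783 in Id2-deleted, while the median depth climbs from 5877.5 to 17480.5 and from 8071 to 22448 UMIs.

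Of the 17 stem cell genes compared, 10 and 9 were lower against all other stem cells. The list's median log2 ratio was −1.48 and −1.08, and their summed level was 1966 and 1961 CPM in members against 4019 and 3985 in the other stem cells. In the median cell of Id2+/+ the sum was 1954 CPM among members and 4095 among the others. Hlf, a transcription factor gene that marks HSCs, was at 32.1 and 19.2 CPM against 168 and 129. After thinning, 18.2% and 5.74% of members and 51.0% and 44.9% of the other stem cells held an Hlf UMI. Procr (EPCR) was at 13.7 and 4.66 CPM against 77.4 and 72.5, Mecom (Evi1) at 7.64 and 14.5 against 59.9 and 55.7, and Ly6a (Sca-1, an antigen of the sort) at 13.7 and 18.6 against 114 and 93.9.

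The gene of the stem cell list called higher in Id2-deleted was Ctnnal1, for a catenin-like protein, at 26.0 and 33.7 CPM against 18.7 and 13.7. Other stem cell genes were not lower to the same degree. Slamf1, which encodes CD150, was at 26.0 and 34.7 CPM against 27.5 and 29.1, and Kit at 88.6 and 58.5 against 128 and 90.7. Angpt1 was at 153 and 113 CPM against 150 and 136. Ifitm1, for an interferon-induced membrane protein abundant in HSCs, was the lowest of the ranked genes that had at least 50 CPM in the members of a library, at 296 and 261 CPM against 1265 and 1377, a ratio of 0.234 (0.201 to 0.271) and 0.189 (0.172 to 0.208).

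The choice of comparator mattered for this group. Against the deep other stem cells the median log2 ratio of the stem cell genes was −0.066 and −0.27, and the summed level was 2170 and 2734 CPM in those cells, 4836 and 4689 CPM in the shallower ones. The summed ratio was 0.91 (0.83 to 0.98) and 0.72 (0.68 to 0.75). Single genes kept more of the difference. Hlf had a ratio of 0.45 (0.25 to 0.80) and 0.27 (0.18 to 0.41), Mecom 0.22 and 0.44, Ly6a 0.24 and 0.33, and Ifitm1 0.59 and 0.30. For Procr the Id2+/+ interval included 1, at 0.61 (0.22 to 1.63), while the Id2-deleted ratio was 0.22 (0.09 to 0.49). Kit, at 0.91 and 0.90, had intervals that included 1 in both libraries.

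**Figure D4:**
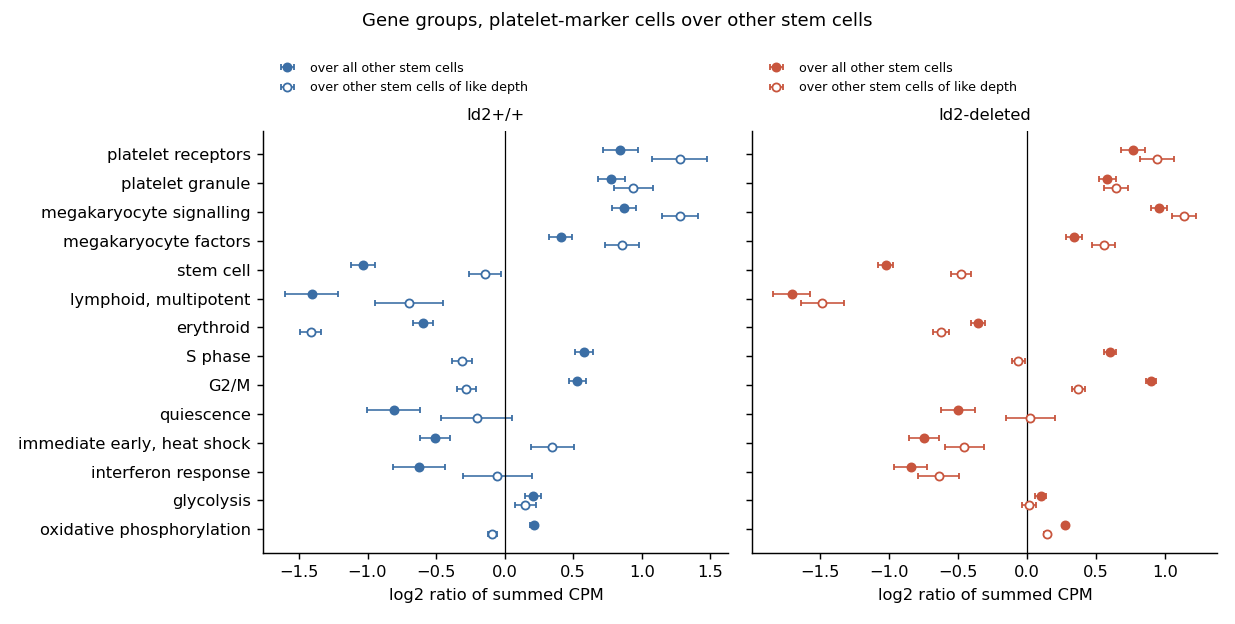
Log2 ratio of the summed CPM of each gene group (x axis) in members over all other stem cells (filled) and over the deep other stem cells (open), with 95% intervals for counting error. The platelet groups lie above 0 with both comparators, the stem cell group comes nearer to 0 with the deep one (summed ratio 0.91 and 0.72), and the G2/M group falls below 0 in Id2+/+ (0.82).

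Genes of multipotent and lymphoid progenitors were lower with either comparator. Of 13, 6 and 8 were compared, none was higher and 5 and 6 were called lower, with a median log2 ratio of −1.49 and −1.61, and of −0.70 and −1.42 against the deep comparator. Cd34 was at 55.0 and 54.9 CPM against 162 and 175, with a deep ratio of 0.43 and 0.32. Sox4, which the study names for its activated class together with Cd34, was at 113 and 76.7 CPM against 376 and 338, with a deep ratio of 0.69 and 0.31. Cd27, a lymphoid costimulatory receptor gene, was at 65.7 and 48.2 CPM against 143 and 142. Flt3, whose product the sort excluded, had 0 and 2.59 CPM against 19.96 and 13.3. Neither Hlf nor Cd34 had a UMI in 26 of 55 and 41 of 122 members, against 37 of 208 and 38 of 296 other stem cells, although members were the deeper cells.

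Some cell cycle genes were higher in members than in all other stem cells. In the S phase list 4 of 33 and 8 of 42 compared genes were called higher, beside 1.7% and 2.35% of all genes, and none lower, with a median log2 ratio of 0.55 and 0.59. In the G2/M list 2 of 32 and 23 of 47 were called higher, beside the same shares, and none lower, with a median of 0.64 and 0.98. Aurkb, the chromosomal passenger kinase, was at 53.5 and 77.7 CPM against 14.97 and 16.5, and Cdca8, for borealin of the same complex, at 154 and 153 CPM against 65.5 and 54.3. In Id2+/+ Aurkb, which is among the G2/M genes called there, passed the minimum of UMIs only through the members' higher level. Cdk1, the third gene that the study names for the class, was at 128 and 178 CPM against 73.6 and 72.1. After thinning, 32.7% and 35.2% of members and 14.4% and 19.6% of the other stem cells held a Cdk1 UMI, whereas 44.4% and 36.8% of cells above the neutrophil limit did.

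The deep comparator changed this group too, with medians of −0.27 and −0.071 for S phase and −0.20 and 0.42 for G2/M genes. After thinning the medians were 0.47 and 0.45 for S phase and 1.07 and 0.75 for G2/M genes. As a mean over cells they were 0.26 and 0.25 for S phase and 0.24 and 0.16 for G2/M genes, and with the smaller addition 0.83 and 0.82 and then 0.996 and 1.05. Its cells had 5657 and 5204 CPM of S phase genes and 6301 and 5046 CPM of G2/M genes, against 4556 and 4985 and against 5188 and 6520 in members. The members' summed G2/M level was thus lower than that of the deep other stem cells in Id2+/+, with a ratio of 0.82 (0.78 to 0.87), and higher in Id2-deleted, at 1.29 (1.25 to 1.33). For Cdk1 the ratio was 0.73 (0.54 to 1.002) and 1.28 (1.05 to 1.56). Whether the libraries differ in this was not tested, since each genotype has 1 library.

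Among CDK inhibitors and other genes of quiescence, 5 of 9 and 3 of 11 compared genes were called lower and 0 and 2 (Btg2 and Cdkn2d) higher. Their median log2 ratio was −1.07 and −0.68, but −0.066 and −0.30 against the deep comparator. Cdkn1c (p57), which holds HSCs in quiescence and which the study names for its first class, was at 16.8 and 18.6 CPM against 55.5 and 46.6. In Id2+/+ Cdkn1c, which is among the genes called lower, passed the minimum of UMIs only through the other stem cells' higher level. Pml, also of that class, was at 36.7 and 22.3 CPM against 48.0 and 35.4. Ccnb2, a mitotic cyclin gene of the activated class, had ratios of 1.74 and 1.71. Myc was at 162 and 120 CPM against 120 and 140.

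Immediate early and stress genes had a median log2 ratio of −0.82 and −0.92, with 5 of 12 and 5 of 11 compared genes called lower and none higher. Against the deep comparator the summed ratio was 1.27 (1.14 to 1.42) in Id2+/+ and 0.73 (0.66 to 0.81) in Id2-deleted, so the direction in Id2+/+ depended on the comparator. Interferon response genes had a median of −0.57 and −1.09, with 1 of 10 (Iigp1) and 10 of 16 called lower, and a summed deep ratio of 0.96 (0.81 to 1.15) and 0.64 (0.58 to 0.71). Of the nuclear oxidative phosphorylation genes, 64 of 76 and 69 of 78 compared were above a log2 ratio of 0, none was called, and the median was 0.20 and 0.29, but −0.10 and 0.14 against the deep comparator. Ldha, for lactate dehydrogenase, had ratios of 1.75 and 1.63, while the glycolysis median was 0.07 and −0.15. MHC genes had a median of −0.18 and −0.33, which was 0.24 and −0.075 against the deep comparator, and Cd74, for the class II invariant chain, was at 22.9 and 10.9 CPM against 69.3 and 116.

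Genes known to be higher in aged HSCs went both ways, with 1 of 5 and 3 of 10 called higher and 1 and 2 lower. Of all genes 1.7% and 2.35% were higher and 4.61% and 5.67% lower. Their median log2 ratio was −0.055 and 0.14, and −0.15 and 1.67 against the deep comparator. Called higher were Vwf in Id2+/+ and Vwf, Clu and Ehd3 in Id2-deleted, and both Vwf and Clu also stand in the granule list. Sult1a1, a sulfotransferase gene of the same list, was at 1.53 and 1.55 CPM against 32.4 and 17.2. In each library it passed the minimum of UMIs only through the other stem cells' higher level.

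Markers of other cell types were measured in the same cells. Of 17 erythroid genes 13 and 14 were compared, 5 and 3 were called lower and 0 and 1 (Epor) higher, and their sum was 3200 and 2612 CPM in members against 4831 and 3338. The sum of 16 neutrophil and monocyte genes was 945 and 492 CPM against 1218 and 852. The rule had already removed cells high in either program. Mast cell and basophil genes (9) summed to 13.7 and 8.29 CPM in members against 18.7 and 9.11 in the other stem cells. Macrophage genes (7) summed to 27.5 and 12.4 CPM against 7.49 and 27.3, so they were higher in members in Id2+/+ and lower in Id2-deleted. Endothelial genes (6) summed to 18.3 and 10.9 CPM against 40.6 and 25.2. Each of these sums had a median of 0 over members. None of the mast cell or macrophage genes reached 50 UMIs. B cell genes (7) summed to 67.2 and 40.4 CPM against 93.6 and 47.3. T and NK genes (7) summed to 157 and 142 CPM against 74.2 and 104, of which Nkg7 alone was at 156 and 142 CPM against 73.0 and 103. The part of these cells in the results above was not tested.

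Free RNA held the markers as well. In empty droplets, barcodes with 1 to 100 UMIs, the 7 markers stood at 544 and 371 CPM, which is above the other stem cells (215 and 239 CPM) and below members (4263 and 4888 CPM). By the haemoglobin share relative to empty droplets, free RNA made up 19.0% and 7.32% of the UMIs of the other stem cells. In members it made up 9.46% and 4.43%. Cells above the erythroid limit, whose median depth was 35712 and 39839.5 UMIs, had 4 markers in 2 of 34 and 2 of 156 cases, and in none after thinning. Cells above the neutrophil limit, with a median of 17626 and 18347.5 UMIs, had 4 markers in 0 of 27 and 1 of 38 cases. Subtracting free RNA turned the erythroid median to 1.13 and 0.31 and the neutrophil median to 3.73 and 0.53, and it left the sign of the medians of the platelet, stem cell and lymphoid groups.

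Genes with at least 50 CPM in the members of a library were also ranked without regard to the lists, a floor that leaves out genes nearly lost in members, such as Hlf, Procr, Ly6a and Sult1a1. Of the 12 highest genes by the smaller of the log2 ratios of the libraries, 6 were markers of the rule, and the other 6 were Serpine2, Plek, Tuba8, Rap1b, Slc14a1 and Rab27b. Tuba8, like Serpine2 and Plek, passed the minimum of 50 UMIs in Id2+/+ only through the members, and Serpine2 did so in Id2-deleted too. The 12 lowest above that floor were Ifitm1, Sox4, Gimap6, Ypel3, Cd34, Hbb-bt, Shisa5, Lst1, Limd2, Dusp2, Krt18 and Glul, with ratios from 0.189 to 0.419. Gimap6, of a GTPase family of lymphoid cells, was at 58.0 and 48.2 CPM against 188 and 207. Dusp2 in Id2+/+ was not lower against the deep comparator, with a log2 ratio of 0.063.

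Within members, Id2-deleted cells were compared with Id2+/+ cells over 5668 genes, of which 39 (0.688%) were higher and 120 (2.12%) lower by a fold of 2, with a median log2 ratio of 0.0059. None of the 48 megakaryocyte genes outside the rule that were compared was called. Receptors had a summed ratio of 0.96 (0.89 to 1.04), granule genes 0.99 (0.93 to 1.05), cytoskeletal and signalling genes 0.96 (0.92 to 1.02) and transcription factor genes 0.83 (0.79 to 0.88). In the other stem cells the same ratios were 1.01 (0.94 to 1.09), 1.14 (1.08 to 1.20), 0.91 (0.86 to 0.95) and 0.87 (0.84 to 0.91). Stem cell genes had a ratio of 0.998 (0.936 to 1.064). Rap1b was at 874 and 880 CPM and Cd9 at 525 and 532, both with intervals that included no difference.

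Of the genes that chose the cells, Pf4 had a ratio of 1.20 (1.14 to 1.26) while its median member had 572 and 567 CPM, and F2r a ratio of 0.59 (0.48 to 0.73), both given as a description. Vwf was at 45.8 and 69.4 CPM, a ratio of 1.52 (1.01 to 2.33), against 0.56 (0.34 to 0.92) in the other stem cells. Among members with Xist and no Y-linked UMI the Vwf ratio was 0.95 (0.58 to 1.63), and among those with Y-linked UMIs alone it was 12.9 (2.11 to 528), resting on 1 UMI in Id2+/+. Cdk1 was at 128 and 178 CPM, a ratio of 1.39 (1.09 to 1.78), against 0.98 (0.78 to 1.24). G2/M genes as a group had a summed ratio of 1.26 (1.21 to 1.31) in members and 0.97 (0.94 to 1.01) in the other stem cells, and S phase genes 1.09 and 1.08. Of the 41 G2/M genes compared in members, 34 were above 0 and 1, Ckap2l, was called.

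**Figure D5:**
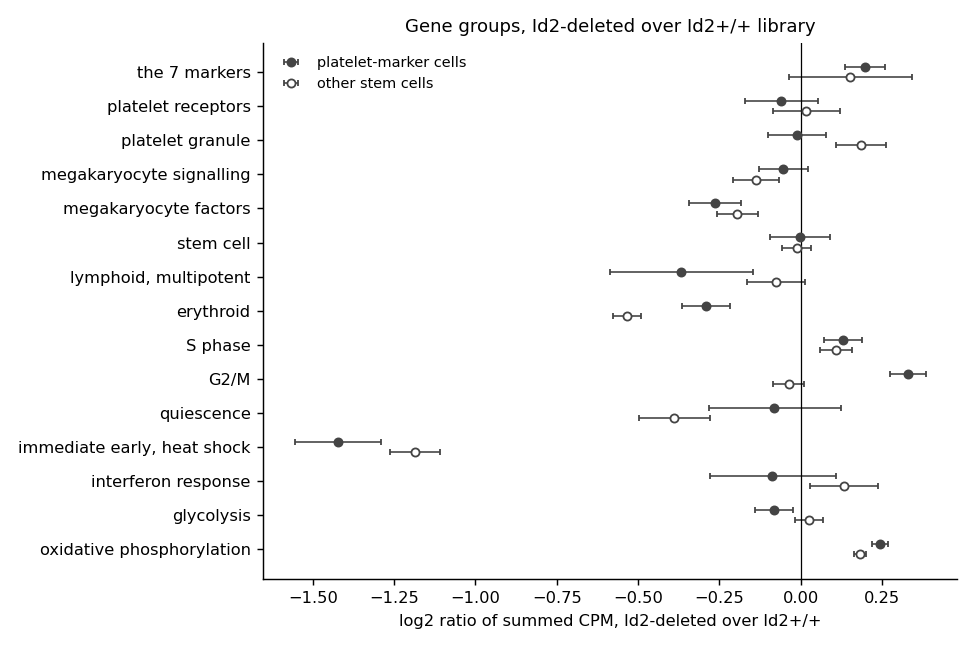
Log2 ratio of the summed CPM of each gene group in the Id2-deleted over the Id2+/+ library (x axis), in members (filled) and in the other stem cells (open), with 95% intervals for counting error. The stress group lies farthest below 0 (summed ratio 0.37 in members and 0.44 in the others), and the G2/M group has a ratio of 1.26 in members and 0.97 in the others.

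Among the lists, immediate early and stress genes had the lowest summed ratio in members, and the other stem cells had it too. In members 4 of 7 compared genes were called lower and none higher, and the summed ratio was 0.37 (0.34 to 0.41), against 0.44 (0.42 to 0.46) in the other stem cells. Fos was at 151 and 14.0 CPM, a ratio of 0.0925 (0.0581 to 0.143) against 0.234 in the others. It is among the genes called in members, and there it passed the minimum of UMIs only through the Id2+/+ members' higher level. Jun was at 480 and 117 CPM, a ratio of 0.243 against 0.345, and Dusp1 and Fosb had ratios of 0.274 and 0.29. Neutrophil and monocyte genes were lower as well, with 4 of 8 called and a summed ratio of 0.52 (0.47 to 0.58) against 0.70 in the others. Their median log2 ratio in members was −0.78, and 0.33 with free RNA subtracted, which, estimated from the haemoglobin share relative to empty droplets, made up 9.46% of the UMIs of Id2+/+ members and 4.43% of those of Id2-deleted members. Nuclear oxidative phosphorylation genes had 69 of 76 above 0 and none called, with a summed ratio of 1.18 in members and 1.13 in the others.

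The genes with the largest differences within members are given next, and several rested on few UMIs. Higher in Id2-deleted were Mt1, a metallothionein gene, at 36.7 and 106 CPM (ratio 2.90, 1.89 to 4.63, against 0.89 in the other stem cells), Ccdc58, Mrps22, Prc1, a spindle midzone gene, Pcm1 and Ckap2l, with ratios from 2.28 to 2.58 for the last 5. In cells with Xist alone Ckap2l was not higher, with a log2 ratio of −0.056. Lower were Ccl5, Fos, Chpt1, Jun, Ino80d and Uchl4. Ccl5 rested on 3 cells of Id2+/+, with 49 of its 61 UMIs in 1 cell (80.3%). Chpt1, Ino80d and Uchl4 had ratios of 0.229, 0.248 and 0.254, against 0.315, 0.539 and 0.575 in the other stem cells. Ccl5, Fos, Chpt1, Ino80d and Uchl4 passed the minimum of UMIs, and the floor in CPM, only through the Id2+/+ members' higher level. Their ratios in members and in the other stem cells are thus not on equal terms. Uchl4 lies within Map2k1, whose reads may be mixed with its own.

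The pools held cells with Xist UMIs and cells with UMIs of Y-linked genes, in different proportions. Of the members, 22 of 55 and 66 of 122 had Xist and no Y-linked UMI, and 16 and 21 had Y-linked UMIs and no Xist. Pf4 in the first kind was at 5341 and 3328 CPM and in the second at 1080 and 5552 CPM, so that its direction between the libraries differed with the kind of cell. The summed ratio of stress genes was 0.60 (0.52 to 0.69) among the former and 0.27 (0.22 to 0.32) among the latter, and their median log2 ratio was −0.081 and −1.29, against −1.79 over all members. The part of sex in the comparison of genotypes was not tested.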

How the data were processed

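The authors deposited raw UMI counts per gene and barcode, 1 matrix per library with 737280 barcodes and 27998 genes, not normalized and with no call of cells. The submitters' processing notes name Cell Ranger 2.2.0 and mm10. The labels give 383 and 686 cells as analyzed, and the limits used here called 349 and 632, of which 333 and 625 had under 10% mitochondrial UMIs. Groups were taken from the genotype labels. The treatment text of the Id2-deleted sample has a clause naming Id2+/+ bones, and its title and genotype field were followed.

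A barcode was a cell when it held 10% of the UMIs of the barcode at percentile 99 among the 1000 deepest. Left out were cells with 10% or more haemoglobin UMIs, at least 1000 CPM of Klf1, Car1 and Epor, or at least 1% of UMIs in Elane, Mpo, S100a8 and Ngp. Members had a UMI for at least 4 of the 7 markers. The members, the 24 gene lists and the rules were chosen with earlier results of these data known.

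Counts were summed over cells and scaled to a common total of UMIs (CPM). Genes needed 50 UMIs over the cells compared, 0.5 was added to each count on the log2 scale, and medians are over genes that passed. A gene with few UMIs could pass through the group where it was high, and the counts of called genes include such genes. Ratios have exact conditional, levels Poisson and shares Clopper-Pearson 95% intervals, and a count of 0 cells has the limit of 3 cells instead. With 1 library per genotype nothing was tested and p-values are absent. The named genes were the markers and the study's class genes with Id2 and Myc, up to 4 of each list, the 12 highest and 12 lowest genes over both libraries by the log2 ratio nearer 0, and the 6 highest and 6 lowest between genotypes, with at least 50 CPM in the members of a library and without sex-linked, mitochondrial, ribosomal protein genes and pseudogenes. Other list genes named were chosen after their values were seen as examples of their list. The code was tested on simulated data. Positions and overlaps are from RefSeq GRCm38.p6, the assembly of mm10, matched to 23888 rows, without strand. No promoter, protein or genome sequence was used here, so the planned count of promoter motifs was not run. The values of some single genes are not reported here. Tools were Python 3.11.15, numpy 2.4.6, scipy 1.17.1, pandas 2.3.3, matplotlib 3.10.9, R 4.3.3 and, for scaling factors only, edgeR 4.0.16. Alternatives covered thinning, the marker number, other comparators, count minimum, scaling, mean over cells (adding 0.5 of a count at the mean depth of a cell, or, chosen after seeing the data, over the group), free RNA subtraction and Xist or Y-linked cells.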

Additional observations from a re-analysis of the deposited data

Results flagged for a closer look

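Between the libraries, several values within members pointed one way in Y-linked cells, which lacked Xist (16 Id2+/+ and 21 Id2-deleted members) and the other way in Xist cells, which lacked Y-linked UMIs (22 and 66 members). The ratio of Id2-deleted to Id2+/+ was 5.14 in the former and 0.623 in the latter for Pf4, 3.60 and 0.252 for Serpine2, 4.63 and 0.526 for Plek and 1.85 and 0.735 for Rap1b. It was 0.684 and 1.48 for Ifitm1, 0.354 and 2.56 for Gimap6, 0.368 and 2.03 for Ypel3 and 0.359 and 2.34 for Limd2. For the summed level of the 7 markers it was 3.57 and 0.65, and for the stem cell list 0.845 and 1.19. The share of members after thinning differed between the libraries by 10.1 percentage points in the former and −2.75 in the latter, in 1 draw with 5 and 14 members and with 10 and 21, and with overlapping intervals. As deposited the shares went one way in both kinds, from 17.4% to 23.3% and from 25.9% to 28.3%. These differences between the kinds of cell were not tested, since each genotype has 1 library, and a few cells hold most of the Pf4 UMIs.

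Outside the stem cells, 2.63% (1 of 38) of the Id2-deleted cells above the neutrophil limit had at least 4 of the 7 markers, against 0 of 27 in Id2+/+. Pf4 in those cells was at 345 CPM in Id2-deleted and 36.8 CPM in Id2+/+. The 1 cell held 216 of the 242 Pf4 UMIs (89.3%), had 6 of the 7 markers and 32734 UMIs in all, and without it Pf4 was at 38.8 CPM.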

How the results depend on the processing

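No paired analysis was possible because there was a single library of either genotype. The share of members, 20.9% in Id2+/+ and 29.2% in Id2-deleted, was 8.75% and 12.7% after thinning to 4394 UMIs, 28.9% and 40.2% with at least 3 markers and 15.2% and 20.6% with at least 5. Without Pf4 it was 15.6% and 22.2%, and without Itga2b 16.0% and 21.1%. In Id2+/+ it was 29.2% above 6178 UMIs and 29.7% by a summed level of 500 CPM. In Id2-deleted it was 19.9% thinned to 6178 UMIs, 23.2% without F2r, 24.4% without Gp5, 20% with other lineages kept and 23.3% in Y-linked cells.

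Counts of genes higher and lower by a fold of 2 moved with the count minimum, the fold and the scale. Members over other stem cells in Id2+/+ (97 and 264) gave 247 and 640 at 20 UMIs, 1306 and 2082 at 1 UMI, 13 and 92 as a mean over cells (158 and 290 with 0.5 of a count over the group added, an alternative chosen after seeing the data) and 449 and 736 at a fold of 1.5. The higher genes were 292 with free RNA subtracted, 150 against cells with 0 or 1 marker and 148 after thinning, and the lower genes 66 against the deep comparator. In Id2-deleted (180 and 434) the counts were 298 and 838, 1181 and 2919, 14 and 147, and 598 and 1140 in the same order. They were 101 and 135 against the deep comparator, and the higher genes 112 without members above the 95th percentile of UMIs and 117 after thinning. Between the genotypes (39 and 120) they were 150 and 367, 622 and 2086, 0 and 69, and 262 and 484, with 92 higher after free RNA subtraction, 60 higher in Xist cells and 60 lower in Y-linked cells. The count minimum, the fold and the count added to the mean over cells act by construction, and for the other moves the cause was not tested.

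Called values that reversed were Vwf in Id2+/+ as a mean over cells (log2 ratio −0.025, and 0.91 with the smaller addition), Dusp2 in Id2+/+ against the deep comparator (0.063), the endothelial median in Id2-deleted at 1 UMI (0.75) and Ckap2l between genotypes in Xist cells (−0.056). The medians of the stem cell, lymphoid, granule and cytoskeletal lists kept their sign in 12 of 12 alternatives in each library, from −2.02 to −0.066 and from −1.25 to −0.27 for stem cell genes. The Id2+/+ medians of other lists changed sign against the deep comparator, namely S phase (−0.27), G2/M (−0.20), stress (0.27), MHC (0.24), interferon (0.030), neutrophil (0.013), oxidative phosphorylation (−0.10) and the study's class genes (−0.45), and so did S phase (−0.071) and B cell genes (0.19) in Id2-deleted. Free RNA subtraction turned the neutrophil and erythroid medians to 3.73 and 1.13 in Id2+/+, 0.53 and 0.31 in Id2-deleted and 0.33 and 0.29 between genotypes. TMM scaling moves every gene of a comparison alike, by under 0.1 on the log2 scale. Depth limits what can be said of genes under 50 UMIs, and 1 library per genotype limits every comparison of genotypes.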
